A study of Mus musculus with 6 samples.

Results

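Small nucleolar RNAs (snoRNAs) are short RNAs of the nucleolus, the place where ribosomal RNA is made, and they are described here in injured and non-injured quadriceps. A row of the deposited table counted as a snoRNA where the table gives it that biotype, which held for 95 of 20015 rows. By name, 8 of them are C/D box snoRNAs (Snord), 32 are H/ACA box snoRNAs (Snora) and 55 are other models, among them the U3 genes Rnu3a, Rnu3b3 and Rnu3b4 and the model Scarna10. Of the 95, 91 passed the filter on low counts and were tested, and Gm25053, Snora20, Snora41 and Snord23, with means of 8.8, 6.5, 6.0 and 7.0 counts per library, did not pass.

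The study sequenced RNA of quadriceps from limbs with an injury of the anterior cruciate ligament and from limbs without one, with 3 libraries in each group, lettered A, B and C in both. The organism label gives mouse and names no strain, genotype, age or time after injury, while the series text and the protocol speak of human muscle taken before reconstruction surgery. The symbols and positions of all 95 snoRNAs match mouse gene models on build mm10, so the values are treated as mouse. No label says whether libraries of a group are separate animals, so a p-value here measures library-to-library spread alone, and that spread may be technical. In bulk RNA, fewer cells of a type and less RNA per cell cannot be told apart.

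Most vertebrate snoRNAs are cut out of the introns of longer host transcripts, many of which encode ribosomal proteins or translation factors. C/D box snoRNAs carry a C box near the start and a D box near the end, bind fibrillarin and guide the methylation of riboses. H/ACA box snoRNAs end in the letters ACA followed by a short tail, bind dyskerin and guide the change of uridine to pseudouridine. A few snoRNAs, such as U3, U8, U17 and U22, act in the cutting of the ribosomal RNA precursor instead. Muscle that gains mass makes more ribosomes, and snoRNAs are part of the machinery that makes them.

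The sequences below are those of GENCODE M21 on mm10, read on the strand of the transcript, and were chosen because the results turn on them. The first pair are the most abundant snoRNAs, at chr11:69669635-69669778 (minus strand) in the Eif4a1 gene and chr11:51737779-51737922 (minus strand) in an intron of Sec24a. The capitals in Gm22988 mark the terminal ACA, and those in Gm25291 mark the bases at which it differs from Gm22988. The pair are identical at 140 of 144 positions. Gm24727 and Gm25117 share 91.1% to 93.8% identity with them. The counting of reads could split or mix such rows.
Gm22988: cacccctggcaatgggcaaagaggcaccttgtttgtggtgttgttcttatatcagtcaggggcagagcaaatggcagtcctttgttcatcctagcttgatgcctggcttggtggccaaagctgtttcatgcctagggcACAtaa
Gm25291: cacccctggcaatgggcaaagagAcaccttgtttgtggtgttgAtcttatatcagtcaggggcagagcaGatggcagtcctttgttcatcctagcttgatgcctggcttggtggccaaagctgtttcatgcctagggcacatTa

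The H/ACA box snoRNAs Snora64 at chr17:24720772-24720905 (plus strand), Snora73a at chr4:132352775-132352979 (minus strand) and Snora7a at chr6:115807975-115808114 (minus strand) are shown with the terminal ACA in capitals, since all 3 were lower in every injured library than in any non-injured one.
Snora64: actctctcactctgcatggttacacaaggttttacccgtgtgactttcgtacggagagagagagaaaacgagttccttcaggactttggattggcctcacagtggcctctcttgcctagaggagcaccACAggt
Snora73a: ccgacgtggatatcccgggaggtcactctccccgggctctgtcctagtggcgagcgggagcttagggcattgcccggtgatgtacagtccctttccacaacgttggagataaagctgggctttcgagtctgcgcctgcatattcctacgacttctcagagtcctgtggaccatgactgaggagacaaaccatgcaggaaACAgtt
Snora7a: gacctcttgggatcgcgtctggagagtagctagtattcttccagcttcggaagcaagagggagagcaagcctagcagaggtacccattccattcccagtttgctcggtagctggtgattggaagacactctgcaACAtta

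Among C/D box RNAs, Snord15b at chr7:99479563-99479707 (minus strand) and Snord17 at chr2:144265979-144266216 (minus strand) are the most abundant Snord rows, and capitals mark the C box and the D box. Snord22 at chr19:8725866-8725991 (plus strand), Snord118 at chr11:69073427-69073561 (plus strand) and the U3 gene Rnu3b4 at chr11:87462286-87462501 (plus strand) are shown because they act in the cutting of the ribosomal RNA precursor and their values differ in sign or size. In these 3, capitals mark the D box alone.
Snord15b: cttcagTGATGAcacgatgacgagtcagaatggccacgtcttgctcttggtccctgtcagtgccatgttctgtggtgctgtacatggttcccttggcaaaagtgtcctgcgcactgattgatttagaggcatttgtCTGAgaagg
Snord17: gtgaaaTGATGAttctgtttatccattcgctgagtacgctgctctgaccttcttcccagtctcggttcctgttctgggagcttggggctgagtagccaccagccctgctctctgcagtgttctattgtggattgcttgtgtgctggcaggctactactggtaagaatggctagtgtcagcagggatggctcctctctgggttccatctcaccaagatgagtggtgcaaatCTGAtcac
Snord22: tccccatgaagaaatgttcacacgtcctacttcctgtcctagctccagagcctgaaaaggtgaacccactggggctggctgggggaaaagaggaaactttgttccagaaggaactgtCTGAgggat
Snord118: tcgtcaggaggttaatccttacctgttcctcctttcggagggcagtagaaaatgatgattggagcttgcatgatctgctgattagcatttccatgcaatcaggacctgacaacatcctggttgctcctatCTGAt
Rnu3b4: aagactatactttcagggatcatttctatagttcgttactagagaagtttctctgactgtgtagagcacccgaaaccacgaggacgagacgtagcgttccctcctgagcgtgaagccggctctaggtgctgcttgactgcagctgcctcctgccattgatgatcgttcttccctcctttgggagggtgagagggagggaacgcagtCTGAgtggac

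ACANNN, that is ACA followed by any 3 bases at the 3′ end of the transcript, stood in 28 of 32 Snora rows, 38 of 55 other models and 0 of 8 Snord rows. It ended 20.02% of the 954 other GENCODE M21 snoRNAs of 100 to 350 nt, and 1.16% of 2500 snRNAs, misc_RNAs and miRNAs of that length. The C box TGATGA within the first 30 nt together with the D box CTGA within the last 20 nt was present in 6 of 8 Snord rows, 0 of 32 Snora rows and 4 of 55 other models, against 0.63% of the other snoRNAs. Only the strand of the transcript was searched. No target or function was given to the models named Gm.

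The lengths of the measured snoRNAs ran from 109 to 325 nt with a median of 135 nt, and 76 of 95 were 120 to 150 nt long. GENCODE M21 lists 1507 snoRNA genes, of which 483 (32.1%) are shorter than the shortest snoRNA in the table. Counts were uneven. Mean counts per library ran from 6.0 to 8331.7 with a median of 69.3, 43 of the 95 had a mean under 50 counts, and the 10 most abundant held 67.3% of the summed level.

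In injured quadriceps, snoRNAs made up a smaller share of the counts. The values are shares of the counts, not amounts of RNA. Counts were divided by the library total and scaled to CPM, the usual depth-corrected unit, with edgeR's TMM factors. The summed level was 4659, 7235 and 7736 CPM in injured libraries A, B and C, against 8726, 9180 and 11026 CPM in non-injured libraries A, B and C. All 3 injured libraries lay below all 3 non-injured ones, with injured A far below injured B and C. The means were 6543 ± 1651 CPM in injured and 9644 ± 1218 CPM in non-injured quadriceps (SD, n = 3 each), a ratio of 0.679. As a share of all counts, snoRNAs made up 0.643% ± 0.149 (injured) and 0.973% ± 0.146 (non-injured). Library totals ran from 6.45 to 7.50 M in the injured group and from 7.23 to 8.75 M in the non-injured group.

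The lower level was seen in each class. Snord rows summed to 678, 1274 and 1280 CPM in injured libraries A, B and C and to 1243, 1580 and 1835 CPM in non-injured libraries A, B and C, so that the groups overlapped. Snora rows summed to 551, 958 and 1076 CPM in injured libraries and 1097, 1179 and 1477 CPM in non-injured libraries, with the groups just apart. The other models, which hold most of the snoRNA counts, summed to 3430, 5003 and 5380 CPM in injured and 6387, 6421 and 7714 CPM in non-injured libraries. The ratios of the group means were 0.694 for Snord, 0.689 for Snora and 0.673 for the other models. No difference between the classes was tested.

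**Figure D1:**
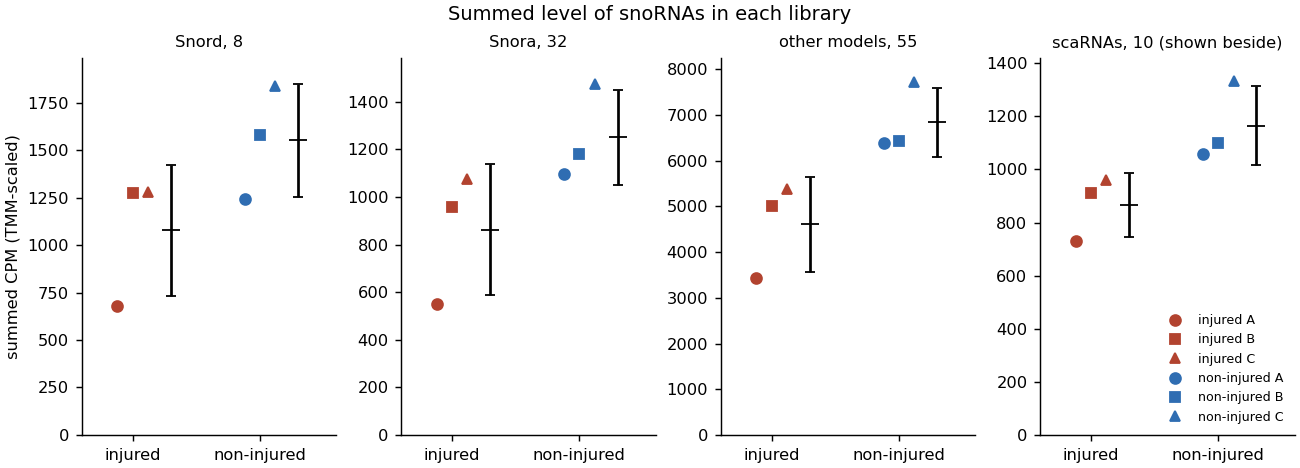
Summed level in CPM (linear axes from 0) of 8 Snord, 32 Snora and 55 other snoRNA models, with 10 small Cajal body RNAs (scaRNAs) beside them, in each library; black marks are means with SD (n = 3). Injured libraries lie below non-injured ones in every panel except Snord, where injured B and C at 1274 and 1280 CPM lie above non-injured A at 1243 CPM, and injured A is the lowest library in all 4.

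Gene by gene, the snoRNAs pointed one way, and how many passed the test depended on whether the letter was a term. Of 91 tested, 87 had a negative log2 fold change (95.6%), against 49.76% of all 16095 genes tested. The median was -0.60, the quartiles being -0.69 and -0.46, against a median of 0.00 over all genes. In edgeR's quasi-likelihood test with Benjamini-Hochberg adjustment over all genes, 0 snoRNAs were higher and 0 lower at an adjusted p under 0.05, where 0.715% of all genes were higher and 0.0311% lower. The smallest adjusted p among them was 0.0617, and 36 snoRNAs (39.6%) were lower at an unadjusted p under 0.05, against 6.11% of all genes; 0 were higher at that threshold. Over all genes, 0.746% passed in either direction. DESeq2 called 8 snoRNAs lower and 0 higher, against 0.466% and 1.57% of all genes, and limma-voom called 0.

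The labels name no pairing. Deviations of same-letter libraries from their group means correlated at 0.316 (A), 0.208 (B) and 0.113 (C), and the letters were treated as pairs on that ground. This pairing is an assumption drawn from the same data, and the calls with the block rest on it. With the letter as a block, edgeR called 37 of 91 snoRNAs lower (40.7%) and 0 higher, against 2.65% of all genes lower and 3.21% higher. The 37 comprised 4 of 7 tested Snord rows, 11 of 30 Snora rows and 22 of 54 other models. Without the letter A pair the block fit called 11 lower, all of them among the 37, and without the B or C pair it called 45 or 39. The members are a list chosen with results known, so these counts describe it.

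In 29 of 91 snoRNAs (31.9%) every injured library lay below every non-injured one, against 9.57% of all genes. In 0 of 91 did every injured library lie above, against 11.9% of all genes. The class medians of the log2 fold change were -0.54 for Snord, -0.63 for Snora and -0.58 for the other models.

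The 2 most abundant snoRNAs, printed above, were clearly separated between the groups. Gm22988 was at 595, 909 and 1071 CPM in injured libraries A, B and C and at 1228, 1289 and 1578 CPM in non-injured libraries A, B and C. The groups did not overlap, and the log2 fold change was -0.67 ± 0.20 (SE; edgeR adjusted p = 0.128, and 0.00388 with the letter as a block). Gm25291 was at 489, 705 and 809 CPM in injured and 1113, 1090 and 1313 CPM in non-injured libraries. Its log2 fold change of -0.81 ± 0.18 had the smallest edgeR adjusted p of all snoRNAs, 0.0617, and 0.00107 with the block.

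Among the H/ACA box RNAs, Snora64 was at 182, 266 and 266 CPM in injured and 302, 360 and 446 CPM in non-injured libraries. It lay lower in all 3 injured libraries (log2 fold change -0.63 ± 0.19, edgeR adjusted p = 0.128, block 0.00302). Snora73a, a U17 RNA needed for early cuts in the ribosomal RNA precursor, was at 38.9, 44.8 and 57.2 CPM in injured and 65.2, 64.6 and 91.3 CPM in non-injured libraries, again without overlap (log2 fold change -0.65 ± 0.18, edgeR adjusted p = 0.118, block 0.00394). Its near-identical partner Snora73b, alike at 198 of 205 positions, did not pass either test. Snora73b was at 31.8, 50.4 and 65.2 CPM in injured and 64.7, 59.4 and 71.6 CPM in non-injured libraries (log2 fold change -0.41 ± 0.21, edgeR adjusted p = 0.391, block 0.0898). Snora7a, in the gene of the ribosomal protein Rpl32, was at 4.29, 7.34 and 7.55 CPM in injured and 11.6, 11.7 and 13.4 CPM in non-injured libraries, on a mean of 70.3 counts (log2 fold change -0.93 ± 0.25, edgeR adjusted p = 0.0947, block 0.0202).

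The models Gm26448, Gm23262, Gm24044 and Gm23946 completed the 8 snoRNAs with separated groups and the smallest p. Gm26448, within the gene of the ribosomal protein Rpsa, was at 77.8, 93.4 and 99.1 CPM in injured and 123, 134 and 163 CPM in non-injured libraries. Gm24044 lies in the same gene and was at 28.2, 43.6 and 44.3 CPM in injured and 61.9, 54.6 and 73.1 CPM in non-injured libraries. Their log2 fold changes were -0.64 ± 0.16 and -0.71 ± 0.19 (edgeR adjusted p = 0.0788 and 0.0944, block 0.00272 and 0.00805). Gm23262, in the translation factor gene Eif4g2, was at 65.8, 84.8 and 115 CPM in injured and 151, 134 and 163 CPM in non-injured libraries, and its log2 fold change was -0.75. Gm23946, in Timm23, was at 375, 459 and 442 CPM in injured and 511, 632 and 735 CPM in non-injured libraries, at -0.56. Their edgeR adjusted p was 0.0827 and 0.120, and with the block 0.00244 and 0.00797.

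**Figure D2:**
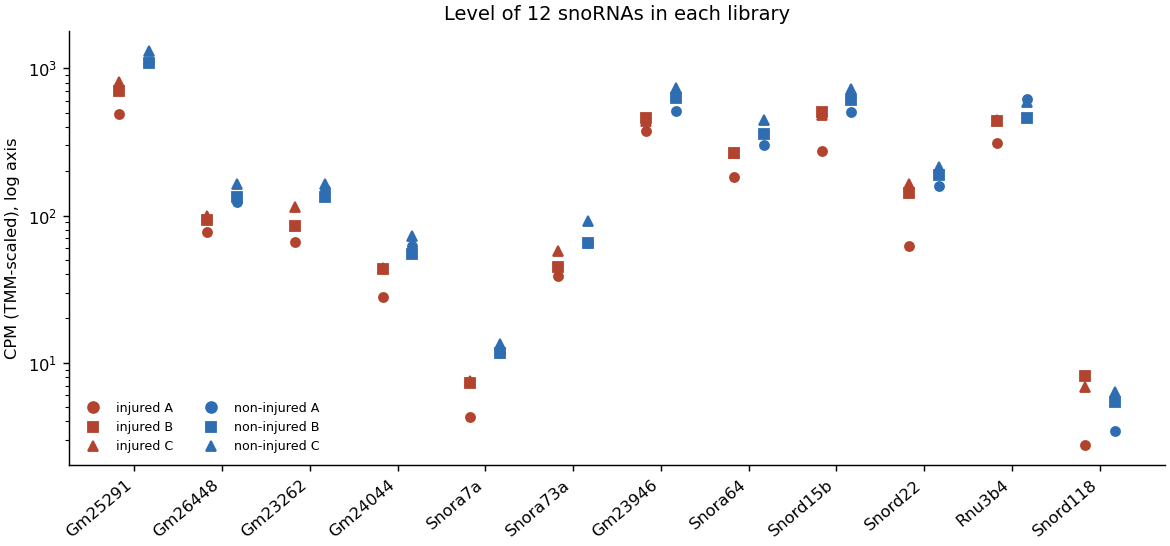
Level in CPM (log axis) of 12 snoRNAs in each library, injured on the left of each pair of columns and non-injured on the right; symbols give the letter. In the first 8 and in Rnu3b4 every injured library lies below every non-injured one, while in Snord15b, Snord22 and Snord118 the groups overlap.

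Of the 7 tested Snord rows, 6 had a negative and 1 a positive log2 fold change, and in 0 of them were the groups separated. Snord15b, a U15 RNA that guides methylation of the large ribosomal RNA, was at 273, 506 and 481 CPM in injured and 503, 605 and 719 CPM in non-injured libraries. Injured B, at 506 CPM, lay above non-injured A, at 503 CPM (log2 fold change -0.54 ± 0.22, edgeR adjusted p = 0.260, block 0.0121). Its neighbour in the Rps3 gene, Snord15a, had a log2 fold change of -0.53, and Snord17 in Snx5 one of -0.49; both passed with the block (0.00996 and 0.0120) and neither without it (edgeR adjusted p = 0.266 and 0.331). Snord22, the U22 RNA that in frog oocytes is needed to make the small ribosomal RNA, was at 62.3, 142 and 165 CPM in injured and 159, 189 and 212 CPM in non-injured libraries. Injured A lay far below the rest, and injured C above non-injured A (log2 fold change -0.60 ± 0.27, edgeR adjusted p = 0.310, block 0.0153).

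The U3 genes make the RNA needed for the first cuts toward the small ribosomal RNA. Their summed level was 779, 1023 and 989 CPM in injured libraries A, B and C, against 1282, 1040 and 1246 CPM in non-injured libraries A, B and C, so the B libraries were nearly level. Rnu3b3 and Rnu3b4 are identical over their 216 nt, so that their separate values come from how shared reads were split. Rnu3b4 was at 312, 437 and 447 CPM in injured and 616, 461 and 594 CPM in non-injured libraries (log2 fold change -0.48 ± 0.17, edgeR adjusted p = 0.204, block 0.0496). Rnu3b3 had a log2 fold change of -0.27 (edgeR adjusted p = 0.387, block 0.183), and Rnu3a, at 57.7, 98.0 and 89.99 CPM in injured and 75.3, 92.0 and 100 CPM in non-injured libraries, one of -0.12 (edgeR adjusted p = 0.811). Without injured A, Rnu3a stood at 0.06 instead.

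Snord118, the U8 RNA needed for the large ribosomal RNA in frog oocytes, was among the 4 snoRNAs with a positive log2 fold change, all on means of at most 40 counts. It was at 2.76, 8.10 and 6.83 CPM in injured and 3.44, 5.40 and 6.29 CPM in non-injured libraries, with wide overlap (log2 fold change 0.23 ± 0.38, edgeR adjusted p = 0.823). The value changed sign when injured B or non-injured A was left out (-0.07 and -0.01). Scarna10, the longest row at 325 nt, was at 248, 194 and 242 CPM in injured and 339, 256 and 337 CPM in non-injured libraries, separated in every library (log2 fold change -0.44 ± 0.16, edgeR adjusted p = 0.208, block 0.0181).

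The largest fold changes stood on few reads. Gm24029, at 0.459, 0.00 and 1.28 CPM in injured and 2.93, 2.41 and 2.95 CPM in non-injured libraries, had a log2 fold change of -2.19 ± 0.69 on a mean of 13 counts. Snora61, in the noncoding host gene Snhg12, was at 0.153, 1.83 and 2.85 CPM in injured and 4.85, 7.69 and 4.69 CPM in non-injured libraries (log2 fold change -1.81 ± 0.56, 28.8 counts). Both passed with the block only (edgeR adjusted p = 0.0485 and 0.0279 with it, 0.154 and 0.143 without). Snora16a and Snora44, in the same host, had log2 fold changes of -0.65 and -0.78 and block adjusted p of 0.0131 and 0.0229 in edgeR.

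The size of the difference varied with the letter. The log2 ratio of the injured to the non-injured library of the same letter had a median of -1.13 over the 91 snoRNAs for letter A, -0.34 for B and -0.49 for C, against -0.02, 0.01 and 0.00 over all genes. It was negative in 91 of 91 snoRNAs for A, 72 for B and 84 for C. Without injured A the median log2 fold change of the 91 was -0.32, and without both A libraries it was -0.42, against -0.60 with all 6. Without the injured library with the lowest snoRNA level, the difference was smaller and of the same sign.

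**Figure D3:**
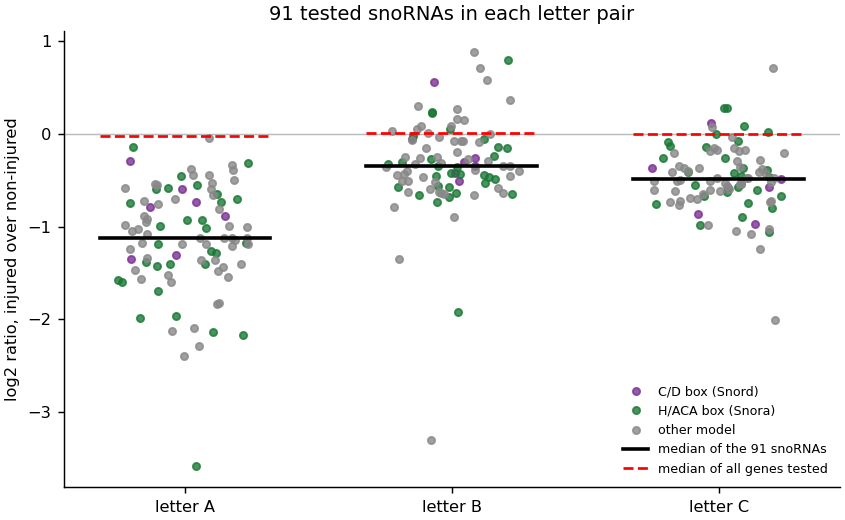
Log2 ratio of the injured to the non-injured library of the same letter for each of 91 snoRNAs (points, by class; side shifts are for legibility). Solid lines are the snoRNA medians, -1.13 for A, -0.34 for B and -0.49 for C, and dashed lines the medians of all genes tested, which lie near 0.

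Injured A also differed from the other injured libraries by the length of the snoRNA. Relative to the mean of injured B and C on the log2 scale, it was at a median of -1.05 for the 75 tested snoRNAs of 150 nt or less and at -0.57 for the 16 longer ones. Across the 91 snoRNAs this difference had a Spearman correlation of 0.549 with length, and of 0.602 over the 52 with a mean of at least 50 counts. These points share 1 library and 1 depth, and genes are not independent replicates, so they are given as a description. Without both A libraries, the log2 fold change had a correlation of 0.022 with length, with medians of -0.43 for the shorter and -0.42 for the longer snoRNAs. With all libraries the medians were -0.62 and -0.49.

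**Figure D4:**
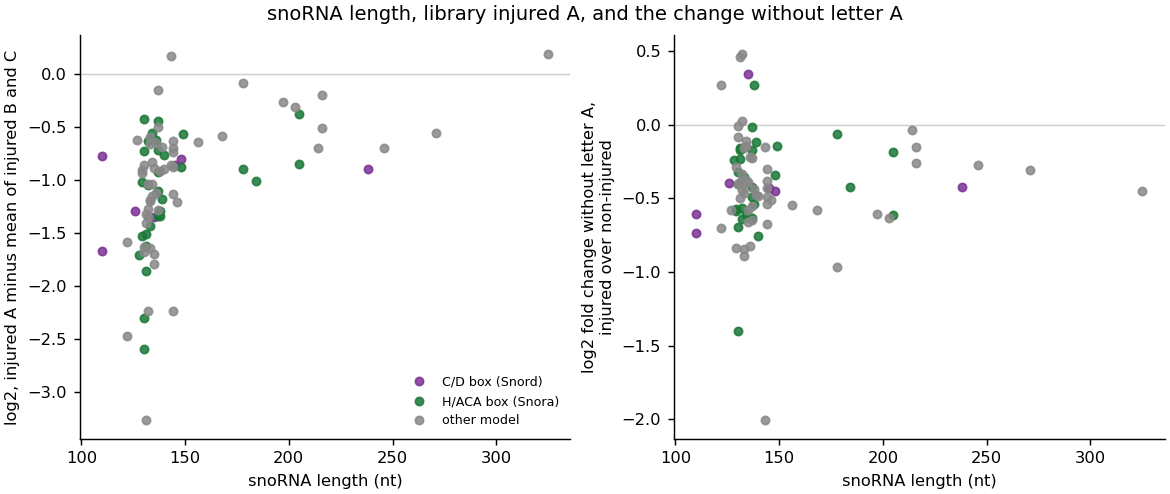
Left, log2 level in injured A minus the mean of injured B and C against snoRNA length in nt; right, log2 fold change of injured over non-injured without the A libraries against length, for 91 snoRNAs by class. On the left shorter snoRNAs lie lower (medians -1.05 up to 150 nt and -0.57 above), and on the right the medians are -0.43 and -0.42.

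Most snoRNAs had a lower log2 fold change than the gene they lie in. By GENCODE M21, 87 of the 95 snoRNAs lie inside 69 host genes on their strand, 52 of them within introns of every transcript and 35 overlapping an exon of at least 1 transcript. In those 35, and wherever the counting did not use strand, which is not given in the sources used here, reads of host and snoRNA may mix. For 80 snoRNAs both partners were tested, with 63 different hosts, so some points share a host. The snoRNA's log2 fold change was below that of its host in 72 of 80, in 40 of the 45 wholly intronic ones and in 32 of the 35 others. The median was -0.61 for the snoRNAs and -0.08 for the hosts. Over all genes tested it was 0.00, with quartiles of -0.22 and 0.30. Most other genes would thus lie above the snoRNAs too, and the 72 of 80 says nothing particular about hosts. By letter the snoRNA lay below its host in 79 of 80 pairs for A, 52 for B and 68 for C. No test of this difference was run.

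Of the 63 hosts, 0 passed edgeR's test without the block (8 at an unadjusted p under 0.05, 1 by DESeq2, 0 by limma-voom), and 2 passed with it, in opposite directions. Of all 16095 genes tested, 2471 had an unadjusted p under 0.05 and 0.746% passed without the block. With the block, 3.21% of all genes were higher and 2.65% lower. The host counts did not exceed these shares. Rpsa, a protein of the small ribosomal subunit, was at 160, 144 and 161 CPM in injured and 123, 116 and 108 CPM in non-injured libraries (log2 fold change 0.42 ± 0.13, edgeR adjusted p = 0.160, block 0.0293). Its intronic Gm26448 and its Gm24044 were lower in the same libraries, as given above. A further intronic snoRNA of Rpsa, Snora62, was at 1.22, 2.60 and 1.42 CPM in injured and 1.79, 1.38 and 3.08 CPM in non-injured libraries. Its groups overlapped on few reads (log2 fold change -0.24 ± 0.51, edgeR adjusted p = 0.862, block 0.840). Taf1d, a factor of RNA polymerase I, was at 219, 191 and 237 CPM in injured and 301, 334 and 410 CPM in non-injured libraries (log2 fold change -0.69 ± 0.16, edgeR adjusted p = 0.0645, block 0.00201). Eif4a1, which holds Gm22988, Gm25835 and Gm24029, had a log2 fold change of -0.36, Sec24a -0.31, Rps3 -0.35, Snhg12 -0.42, Rpl32 0.29 and Snx5 0.28, none past edgeR's test with or without the block. The 19 tested snoRNAs in ribosomal protein genes had a median log2 fold change of -0.63, with 10 lower under the block, and the 9 in Snhg genes one of -0.65, with 6 lower. Over all 91 tested snoRNAs the median was -0.60, with 37 (40.7%) lower under the block, against 2.65% of all genes. The subset medians were thus close to that of all snoRNAs.

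**Figure D5:**
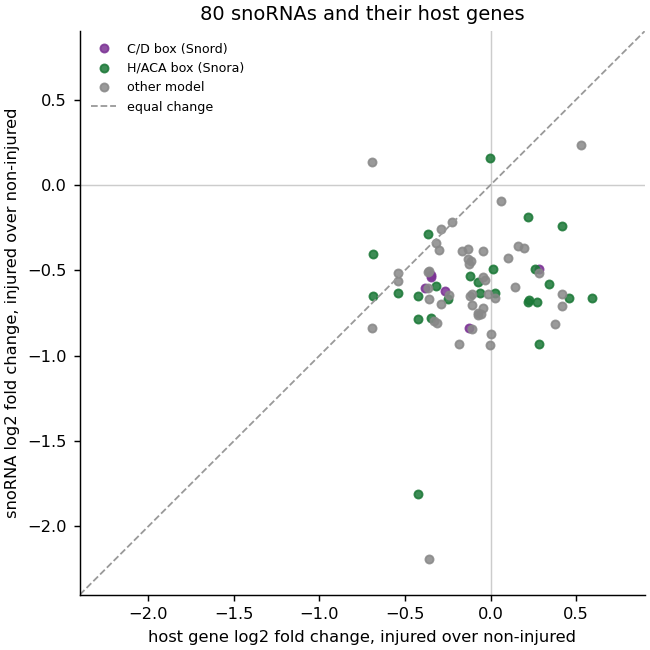
Log2 fold change (injured over non-injured) of 80 snoRNAs against that of their host genes, by class; the dashed line marks equal change. Of the points, 72 lie below the line, with a median of -0.61 for the snoRNAs and -0.08 for the hosts.

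The level per length set most snoRNAs above their hosts. In CPM per kb of exon, 78 of 84 snoRNAs with a host in the table were above it, with a median ratio of 8.47. The exon length of a host was the union over all its annotated transcripts. That length can exceed any single transcript, which lowers the host value and raises the ratio. The table also holds no row under a lowest maximum count, so snoRNAs with fewer reads are absent. A short row that reaches that count already has a high level per kb. The 78 of 84 thus depends in part on which rows the table holds, and that part was not tested. The values compare levels, not changes.

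The genes of the proteins that make up or build snoRNA particles are a second view of the same machinery. Of 37 tested genes on 5 lists, 0 passed edgeR's test with or without the block, 0 by DESeq2 and 0 by limma-voom, and 1 had an unadjusted p under 0.05. Of all 16095 genes tested, 0.746% passed without the block, and with it 3.21% were higher and 2.65% lower. At such shares, 0 of 37 passing does not set these genes apart or show them to be unchanged. An unadjusted p under 0.05 was found for 2471 of the 16095 genes. Medians of the log2 fold change were -0.06 for the C/D box core, 0.24 for the H/ACA box core, -0.07 for assembly and transport, -0.16 for U3 proteins and -0.22 for processing and decay. Fbl, the methyltransferase fibrillarin, averaged 8.75 ± 1.70 CPM in injured and 7.33 ± 0.81 CPM in non-injured libraries, and Dkc1, the pseudouridine synthase dyskerin, 7.83 ± 0.96 CPM in injured and 9.05 ± 0.79 CPM in non-injured libraries (SD, n = 3 each). Mtrex, a helicase that feeds RNA to the nuclear exosome, was the 1 gene at an unadjusted p under 0.05, at 34.4 ± 0.37 CPM in injured and 44.2 ± 2.19 CPM in non-injured libraries (log2 fold change -0.36, edgeR adjusted p = 0.230).

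The sums of other RNAs are given beside those of the snoRNAs, with no test. The 10 scaRNAs, kin of snoRNAs that act on spliceosomal RNA, summed to 867 ± 121 CPM in injured and 1164 ± 149 CPM in non-injured libraries (ratio 0.745), and 36 snRNAs to 11141 ± 3386 CPM in injured and 14306 ± 1452 CPM in non-injured libraries (ratio 0.779). The snRNA groups overlapped, with 7274 CPM in injured A and 13571 CPM in injured C, against 12837 CPM in non-injured A. The 24 misc_RNAs had a ratio of 1.23 with overlap between the groups. The mitochondrial genome held 10.5% ± 0.88 of injured and 6.85% ± 0.66 of non-injured counts, and the part of these RNAs in the snoRNA result was not tested. With scaling factors from nuclear genes other than small RNAs, a setting chosen after seeing the data, the class medians were -0.55, -0.64 and -0.59 for Snord, Snora and other models. Markers of muscle fibres summed to 162765 to 169895 CPM in injured and 179088 to 184604 CPM in non-injured libraries. The log2 fold change was positive in 3 of 8, and 0 of 8 were called with or without the block. Macrophage markers summed to 74.0 to 145 CPM in injured and 28.5 to 34.3 CPM in non-injured libraries. All 7 tested had a positive log2 fold change, and edgeR called 3 higher, or 6 with the letter as a block. Fibroblast markers summed to 453 to 736 CPM in injured and 183 to 238 CPM in non-injured libraries. All 6 had a positive log2 fold change, with 2 called higher, or 3 with the block. Of all genes tested, 0.715% were called higher, and 3.21% with the block. Erythroid markers summed to 132 to 324 CPM in injured and 71.4 to 151 CPM in non-injured libraries. All 5 had a positive log2 fold change, with 1 called higher, or 4 with the block. Those of dividing cells summed to 16.4 to 29.96 CPM in injured and 4.46 to 5.40 CPM in non-injured libraries. All 4 tested were positive, with 1 called higher, or 3 with the block. Those of endothelium summed to 71.9 to 80.5 CPM in injured and 62.0 to 75.4 CPM in non-injured libraries. Of these, 4 of 5 were positive, and 0 were called with or without the block. No marker was at 0 in all libraries, and the part of these cells in the snoRNA result was not tested.

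Reads of near-identical snoRNAs cannot be told apart with certainty. A partner of at least 90% identity among the snoRNAs was found for 28 of 95, in 20 pairs. Of the 95, 38 held a fractional value in at least 1 library, and these were not the same rows. Snora64 and Snord15b, which have no such partner and overlap a host exon, held fractional values, while Snora21, which has a partner, did not. Snora81 in Eif4a2 is alike to Gm22519 at 176 of 178 positions, and had a log2 fold change of -0.29 (edgeR adjusted p = 0.565, block 0.193). Gm22519 had one of -0.74 on a mean of 13.5 counts, with overlapping groups (edgeR adjusted p = 0.528, block 0.453). The 64 tested snoRNAs with no such partner had a median of -0.60, 60 of them negative and 28 lower with the block.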

How the data were processed

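RNA sequencing gave 6 libraries of quadriceps RNA, 3 injured and 3 non-injured. The deposited table gives estimated counts, made by the authors, which are not all whole numbers (63.9% of the snoRNA values are whole). Per the submitters' processing notes, STAR 2.7.8a, Partek and DESeq2 are the tools and mm10 and hg19 the builds named, with no roles stated. The counter, the annotation release and the strand setting were not given in the sources. The name of the table calls the RNA myonuclear, while the labels' protocol describes total RNA and names no isolation of nuclei. The lowest row maximum was 10.0, and 0 columns belonged to other samples.

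Counts were rounded, filtered with filterByExpr (16095 genes kept, 3920 dropped), scaled by TMM and tested two-sided with edgeR 4.0.16 (R 4.3.3) across all genes, with Benjamini-Hochberg adjustment. The SE of a log2 fold change is its absolute value divided by the root of F. Ratios by letter use log2 CPM with a prior count of 2. DESeq2 1.42.0 and limma 3.58.1 (voom) served as alternatives, and the steps were tested on simulated data. Depth was 6.45 to 8.75 M counts per library, and the small number of reads limits snoRNAs with low counts. An exact permutation test of 3 against 3 libraries cannot go below p = 0.1, so none was used.

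Deviations from the group means of same-letter libraries correlated at 0.316 (A), 0.208 (B) and 0.113 (C) over 16095 genes. Between different letters the correlations ran from -0.232 to 0.0643. The same-letter values all exceed the different-letter ones, so values with the letter as a block are given where they change a call. The margin is small for C, at 0.113 against 0.0643. Each group was centred on its own mean, so higher same-letter values lower the different-letter ones, and the latter are no independent support for pairing. The labels do not say what a letter marks.

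The snoRNAs and all lists were chosen with earlier results of these data known. Named snoRNAs are those past the threshold with or without the block (37), the 10 most abundant, the 8 separated ones with the smallest p and a mean of at least 20 counts, and a fixed panel (8 measured; its other members are not analysed here), 42 in all. Gm22519, Snora62, Gm24455, Gm25791, Gm25117, Mtrex and the named hosts were singled out after their values were seen. Sequences, hosts and lengths come from GENCODE M21 (mm10), which all 95 snoRNAs matched by symbol, start and strand; the table's end is 1 base beyond. Identity was computed with Biopython 1.88.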

Additional observations from a re-analysis of the deposited data

How the results depend on the processing

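No snoRNA was called higher under any alternative. Those called lower numbered 0 without the block and 37 with the replicate block, 8 with DESeq2, 1 with library totals alone, 1 with no filter and 4 without both A libraries, and block fits without the A, B or C pair, chosen after seeing the data, called 11, 45 and 39. Over all genes, higher and lower calls were 115 and 5, with DESeq2 252 and 75, and with the block 516 and 427. Block fits without the A, B or C pair gave 344 and 336, 388 and 208, and 434 and 306. limma-voom called 53 higher; 17 were lower with no filter, 3 where genes under 50 mean counts were dropped, and 132 without both A libraries. Leaving out 1 library gave 20 to 104 higher and 0 to 25 lower calls. With 1 library left out, Rnu3a ran from -0.271 to 0.062, changing sign without injured A, and Snord118 from -0.066 to 0.55, changing sign when injured B or non-injured A (-0.005) was left out; with the block and without the B pair Snord118 stood at -0.061; the cause was not tested. The class medians and the log2 ratios of the class sums stayed negative in every alternative run, with class medians from -0.31 to -0.86. Few reads limit the 43 snoRNAs with a mean under 50 counts.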
